A study of Mus musculus with 20 samples.

Results

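The regions described here are the ATAC-seq peaks that lie in or nearest to a gene for a cytosolic ribosomal protein. A peak was a member if the nearest mm10 protein-coding gene had a symbol of the form Rpl or Rps with a number (and at most 1 letter a or x), or was Rplp0, Rplp1 or Rplp2. A peak centred inside a gene took that gene (the shortest of several), and any other peak took the gene whose boundary was closest. The rule took 314 of 125343 peaks. The annotation holds 75 such genes, namely 29 of the small subunit, 43 of the large subunit and 3 of the stalk, and 69 of them had a member peak. A name given this way marks a neighbour of the peak, not a target. Of the 314 peaks, 72 were in the promoter class of the deposited annotation, and these belonged to 64 genes. The strongest promoter-class peak of each of the 64 genes is called its gene promoter peak below, and each had its centre within 318 bp of the gene.

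ATAC-seq measures open chromatin by the places where a transposase can insert sequencing adapters. The cells were bone marrow LSK cells (lineage-negative, Kit-positive and Sca1-positive), the compartment with the stem cells and multipotent progenitors of blood, from C57Bl/6J mice of 5 genotypes. Each genotype had 4 libraries, and each library pooled 2 mice aged 3 to 4 months. The WT controls were +/+;Vav-Cre, so they carried the recombinase that the Vav promoter drives in blood cells. The Idh mice carried the same recombinase and 1 allele that it activates: Idh1LSL-R132H/+;Vav-Cre for Idh1 R132H, Idh2LSL-R140Q/+;Vav-Cre for Idh2 R140Q, and Idh2LSL-R172K/+;Vav-Cre for Idh2 R172K. The Tet2 knockout mice were Tet2-/-, and their label names no Cre, so the presence of Vav-Cre cannot be told apart from the loss of Tet2. Idh mutants of these kinds make 2-hydroxyglutarate, which can inhibit dioxygenases such as Tet2, the enzyme that oxidizes methylated cytosine.

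Ribosomal proteins build the small and the large ribosomal subunit around the ribosomal RNAs, and the stalk proteins Rplp0, Rplp1 and Rplp2 recruit translation factors. Their genes are needed in every dividing cell, lie scattered over the genome, and are transcribed at high rates from short promoters that often start within a run of C and T bases. In blood, loss of 1 copy of genes such as RPS19, RPL5 or RPL11 causes Diamond-Blackfan anaemia, and RPS14 is lost in myelodysplasia with a deletion of the long arm of chromosome 5. Such promoters are open in all cells and are often used to judge whether libraries are on a common scale.

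Promoter sequences from RefSeq (GRCm38.p6) were found for 55 of the 75 genes. The windows below are those of the genes the results turn on: the 3 with the highest fold change in Idh2 R172K (Rps2, Rps21 and Rpl15), the 1 gene promoter that was lowered there (Rpl9), 3 of the most open promoters (Rps19, Rpl13a and Rplp0) and 2 of the 4 least open ones (Rpl37a and Rpl35a). Each runs 5′ to 3′ on the gene's strand from 45 bases before the annotated start through the first 15 transcribed bases. Capitals mark a run of at least 5 C or T bases at the start, the Ets core CCGGAAG or the YY1 core AAGATGGC, each core on either strand.
Rps2: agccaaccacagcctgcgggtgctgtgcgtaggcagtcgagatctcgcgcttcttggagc
Rps21: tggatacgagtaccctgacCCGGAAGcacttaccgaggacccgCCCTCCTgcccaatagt
Rpl15: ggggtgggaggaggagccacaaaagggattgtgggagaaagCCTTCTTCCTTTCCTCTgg
Rpl9: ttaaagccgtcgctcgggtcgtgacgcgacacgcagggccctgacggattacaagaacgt
Rps19: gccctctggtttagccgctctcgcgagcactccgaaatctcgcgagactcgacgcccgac
Rpl13a: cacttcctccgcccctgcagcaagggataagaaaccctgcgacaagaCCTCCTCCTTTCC
Rplp0: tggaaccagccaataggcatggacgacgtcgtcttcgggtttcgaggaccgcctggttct
Rpl37a: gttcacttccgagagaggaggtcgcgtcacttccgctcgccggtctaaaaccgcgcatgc
Rpl35a: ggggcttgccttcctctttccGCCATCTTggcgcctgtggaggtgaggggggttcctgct
The windows lie on the plus strand for Rps2 (chr17:24720018-24720077), Rps21 (chr2:180257334-180257393), Rps19 (chr7:24884547-24884606), Rplp0 (chr5:115559422-115559481), Rpl37a (chr1:72711215-72711274) and Rpl35a (chr16:33056469-33056528). They lie on the minus strand for Rpl15 (chr14:18270972-18271031), Rpl9 (chr5:65391417-65391476) and Rpl13a (chr7:45128731-45128790). The C and T run of Rpl15 was 17 bases long, that of Rps21 7 bases and that of Rpl13a 14 bases, the last of which lies past the window.

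The promoters shared some letters beyond the symbol that chose them. A run of at least 5 C or T bases that touched the 3 bases before the start or the first 3 transcribed bases was present in 25 of the 55 genes (45.5%), against 23.7% of 21262 protein-coding promoters and 24.2% of all 32851 promoters of the table. The Ets core CCGGAAG, on either strand within the 300 bases from 250 before to 50 after the start, was present in 21 genes (38.2%), against 11.6% of protein-coding and 8.86% of all promoters. The Sp1 box GGGCGG was present on either strand in 32 genes (58.2%, against 46.2% and 35.7%). The YY1 core AAGATGGC, on either strand, was present in 4 genes (7.27%, against 3.05% and 2.75%), the E box CACGTG in 5 (9.09%, against 7.84% and 7.15%) and the TATA box TATAAA on the gene's strand in 5 (9.09%, against 8.26% and 8.32%). Motifs can share letters: the Ets core ends and the YY1 core begins with AAG, and the Ets core on the other strand holds a run of 5 C and T bases. Matches of different motifs shared a base in 5 of the 55 genes, in each case with the run at the start. The median GC content was 57% in the member promoters, with a range of 40.7% to 72.3%, and 56.3% in protein-coding promoters. In all 47 genes with both a promoter sequence and a gene promoter peak, the annotated start lay inside the peak. The peak of 6 of the 64 genes also held the start of another protein-coding gene, Lrsam1 at Rpl12, Sphk2 at Rpl18, Iqcg at Rpl35a, Med22 at Rpl7a, Lias at Rpl9 and Rab13 at Rps27, and for these peaks the signal of the pair cannot be told apart.

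In WT cells the ribosomal protein promoters were among the more open promoters. The 64 gene promoter peaks had a median of 40.7 CPM (counts per 1e6 counts in peaks, with TMM-scaled library sizes), and ranged from 15.1 to 110.3 CPM. The median over all promoter-class peaks was 15.0 CPM. Since peaks differ in width, levels are compared per kilobase of peak: 43.0 CPM per kb in the gene promoter peaks and 16.6 CPM per kb in all promoter-class peaks, as medians. All 64 lay above the latter value, and 32 lay above the 80th percentile of the class, 43.0 CPM per kb. Part of this was built in: each was chosen as the strongest promoter-class member of its gene. The choice left out 8 other members of the class, while the class itself keeps such peaks. The libraries of WT had a median coefficient of variation of 5.91% at these peaks, against 7.94% over all promoter-class peaks. That class holds many weaker peaks, and the variation was not compared at a matched level.

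Among the most open promoters per kilobase were those of Rps19, a small-subunit protein needed to process the ribosomal RNA of that subunit, with 91.1 CPM per kb, Rpl13a of the large subunit with 88.3 and Rplp0, the stalk base, with 83.4. The least open were those of Rpl37a with 16.8 CPM per kb, the X-linked Rps4x with 17.2, Rpl6 with 17.3 and Rpl35a with 21.2. The median was 50.1 CPM per kb over 24 small-subunit genes and 38.9 over 38 large-subunit genes, and the 2 stalk genes with a gene promoter peak, Rplp0 and Rplp1, had 83.4 and 54.9 CPM per kb. Accessibility is not transcription, and no RNA was measured in these libraries.

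The libraries held 10502052 to 27890340 counts in peaks. Peaks were present near all 9 LSK markers examined, among them Kit, Ly6a (which encodes Sca1), Cd34 and Meis1, and their 236 peaks summed to 1414 to 1491 CPM in WT and 1512 to 1611 CPM in Idh2 R172K. Of the markers of other cells, no peak was named for Cd8a, Cd79a or Ly6g. The 12 peaks of the other T cell markers summed to 16.9 to 18.7 CPM in WT and 21.3 to 24.9 CPM in Idh2 R172K. The 18 peaks of the B cell markers summed to 67.0 to 74.8 and 58.4 to 65.7 CPM. The 16 of the myeloid markers summed to 108 to 121 and 90.4 to 101 CPM, and the 24 of the erythroid markers to 137 to 145 and 158 to 161 CPM. The 47 of the stroma and endothelium markers gave 186 to 205 CPM in WT and 195 to 198 CPM in Idh2 R172K. A sum grows with the number of peaks, so the lists are not compared with each other. Some of these sums joined markers of opposite direction. From WT to Idh2 R172K, mean sums fell for Flt3 (231 to 197 CPM) and Slamf1 (38.7 to 37.3) and rose for the other LSK markers. Cd3e rose (7.95 to 14.3) and Cd4 fell (10.1 to 8.09). Col1a1 (31.95 to 30.03) and Cdh5 (73.2 to 59.95) fell, and Pecam1 rose (93.85 to 106.5). The part of these differences in the results for Idh2 R172K was not tested. Xist peaks split the 20 libraries into 10 with 3.86 to 4.92 CPM and 10 with 33.8 to 40.1 CPM, 2 and 2 in each genotype.

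The comparison of Idh2 R172K with WT asks whether these housekeeping promoters moved in the genotype with the most called peaks. Adjusted p-values are those of the edgeR quasi-likelihood test with Benjamini-Hochberg adjustment over all 123908 tested peaks, and a peak is called raised or lowered where the value is under 0.05. Among the 64 gene promoter peaks, 23 were raised (35.9%) and 1 was lowered (1.56%), while 39.8% of all promoter-class peaks were raised and 15% lowered. The changes were small. The median log2 fold change was 0.11 over the gene promoters, 0.14 over all promoter-class peaks and 0.006 over all peaks. It ranged from -0.19 to 0.31, with 54 values above 0 and 10 below, and the SD over the 64 peaks was 0.10 beside a median standard error of 0.064 for a single peak. The SD over all promoter-class peaks was 0.55, and 6.9% of them changed more than 2-fold, against 0 of the 64. That class holds many weak peaks. Of the 7248 other promoter-class peaks within the level range of the gene promoters (a mean log2 CPM of 3.99 to 6.77), 56.5% were raised and 3.31% lowered, with a median log2 fold change of 0.17 and an SD of 0.19, and 0.359% changed more than 2-fold. Other promoters of this level thus also had few lowered and few large changes. All 4 Idh2 R172K libraries lay above all 4 WT libraries at 16 gene promoters and below them at 0, against 33.8% and 12.7% of promoter-class peaks. The number raised was lower in fits that left out 1 library: 13 without WT replicate 3, 15 without Idh2 R172K replicate 3 and 13 without Idh2 R172K replicate 4. Such fits hold fewer libraries, and the share of promoter-class peaks they called was not compared.

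**Figure D1:**
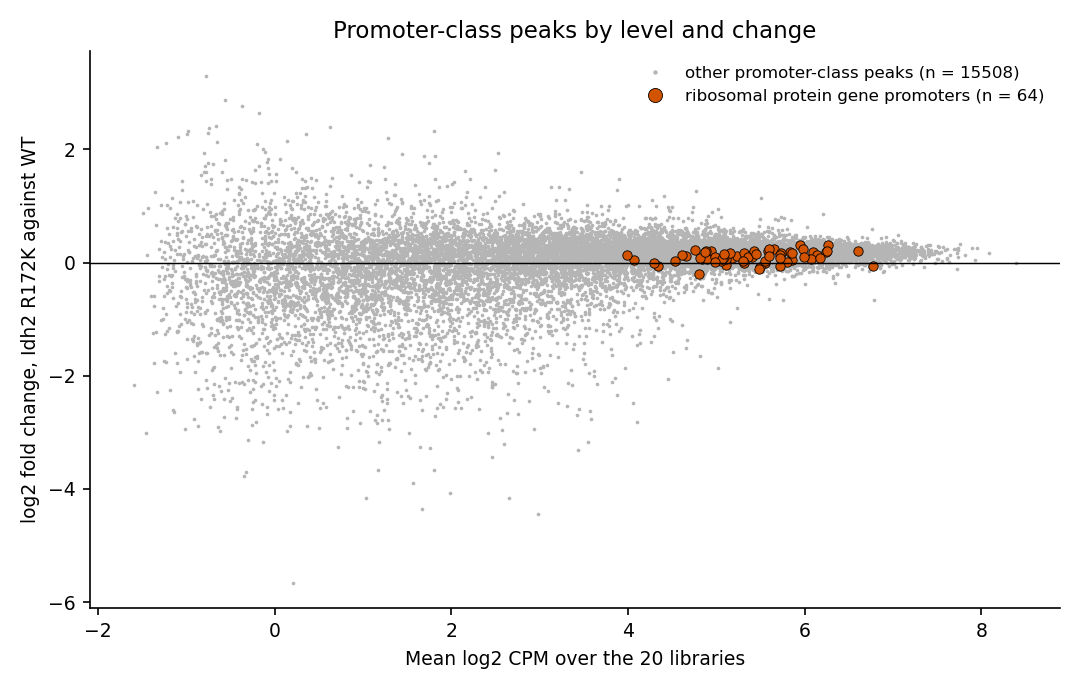
Each point is a promoter-class peak, placed by its mean log2 CPM over the 20 libraries (horizontal) and its log2 fold change in Idh2 R172K against WT (vertical). The 64 ribosomal protein gene promoters (orange) form a narrow band between -0.19 and 0.31 at the open end of the scale, inside the wider scatter of the 15508 other peaks (grey).

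Rps2 and Rps21, both of the small subunit, had the highest fold changes. The Rps2 peak (chr17:24719626-24720464) held 57.4, 62.7, 58.5 and 55.9 CPM in the WT libraries and 68.1, 71.9, 73.8 and 76.8 CPM in Idh2 R172K, a log2 fold change of 0.31 with a standard error of 0.062 and an adjusted p of 6.1e-05 in the edgeR quasi-likelihood test. The groups did not overlap. Idh1 R132H libraries ranged from 55.8 to 61.7 CPM, Idh2 R140Q libraries from 54.0 to 60.9 and Tet2 knockout libraries from 55.5 to 65.9, all below the lowest Idh2 R172K library. The Rps21 peak (chr2:180256691-180257673) held 72.8, 75.1, 68.6 and 74.7 CPM in WT and 85.9, 90.8, 86.7 and 98.0 CPM in Idh2 R172K, a log2 fold change of 0.31 with a standard error of 0.061 (edgeR adjusted p = 4.9e-05). Here too every Idh2 R172K library stood above every WT library. Both genes, like Rpl3, Rpl23a and Rpl9 below, were singled out after their values were seen.

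Of the 38 large-subunit genes, 14 were raised and 1 was lowered. Rpl15 held 57.3, 59.7, 57.6 and 64.3 CPM in WT and 65.3, 67.9, 70.8 and 78.1 CPM in Idh2 R172K (log2 fold change 0.24, edgeR adjusted p = 0.0042), with no overlap. Rpl3, whose protein lies near the catalytic centre of the ribosome, held 43.4, 53.1, 46.7 and 48.8 CPM in WT and 54.2, 56.0, 58.3 and 57.9 CPM in Idh2 R172K (0.24, edgeR adjusted p = 0.0018). The other raised promoters of this subunit, with log2 fold changes of 0.16 to 0.23, included those of Rpl7a, Rpl23a, Rpl13a, Rpl28, Rpl36a, Rpl26, Rpl10, Rpl29, Rpl12, Rpl41 and Rpl31. Rpl9 was the lowered one: it held 31.3, 32.2, 25.9 and 28.1 CPM in WT and 26.5, 23.3, 27.6 and 24.9 CPM in Idh2 R172K, so that the groups overlapped (log2 fold change -0.19 with a standard error of 0.072, edgeR adjusted p = 0.022). It shares its peak with Lias, a lipoic acid synthase gene. Without WT replicate 1 or 2, or without Idh2 R172K replicate 2 or 4, the Rpl9 call was lost, at log2 fold changes of -0.16, -0.15, -0.16 and -0.18.

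Among the 24 small-subunit genes, 8 were raised and 0 lowered, with a median log2 fold change of 0.11, close to the 0.10 of the large subunit. Beside Rps2 and Rps21 these included Rps6, the target of the S6 kinases, at 0.20, Rps20 at 0.19, Rps9 at 0.19, Rps15 at 0.15 and Rps13 at 0.14. Of the stalk genes, Rplp0 held 70.1, 74.6, 73.0 and 76.4 CPM in WT and 78.7, 82.5, 80.9 and 93.9 CPM in Idh2 R172K (0.19, edgeR adjusted p = 0.021), with every mutant library above WT. Without WT replicate 1 or Idh2 R172K replicate 4 its call was lost (0.17 and 0.13). Rplp1 held 48.4, 51.5, 47.0 and 46.7 CPM in WT and 51.7, 50.7, 53.2 and 53.8 CPM in Idh2 R172K, and the difference of 0.11 did not pass (edgeR adjusted p = 0.094).

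Rps19, Rpl5, Rpl11 and Rps14, genes linked to anaemia or myelodysplasia, were not called at their promoters with TMM scaling. Other genes linked to Diamond-Blackfan anaemia, such as Rpl15 and Rpl26, are among the raised promoters above. Rps19, the most open of all, held 107, 119.5, 102 and 113 CPM in WT and 99.9, 106, 113 and 106 CPM in Idh2 R172K (log2 fold change -0.057, edgeR adjusted p = 0.47). Rpl5 and Rpl11, which bind Mdm2 together with the 5S ribosomal RNA when ribosome assembly fails, had 34.7 ± 3.41 and 35.8 ± 2.21 CPM in WT (SD, n = 4) and 33.7 ± 1.07 and 37.7 ± 1.95 CPM in Idh2 R172K. Rps14 had 54.4 ± 2.34 CPM in WT and 54.6 ± 4.00 CPM in Idh2 R172K. The log2 fold changes of these 3 genes were -0.041, 0.075 and 0.0087. Under other scalings Rpl5 was lowered in 3 (cyclic loess -0.17, promoter-class TMM -0.16 and ribosomal protein scaling -0.15, with edgeR adjusted p of 0.017, 0.020 and 0.039), and Rps14 in 1 (cyclic loess -0.16, edgeR adjusted p = 0.012).

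**Figure D2:**
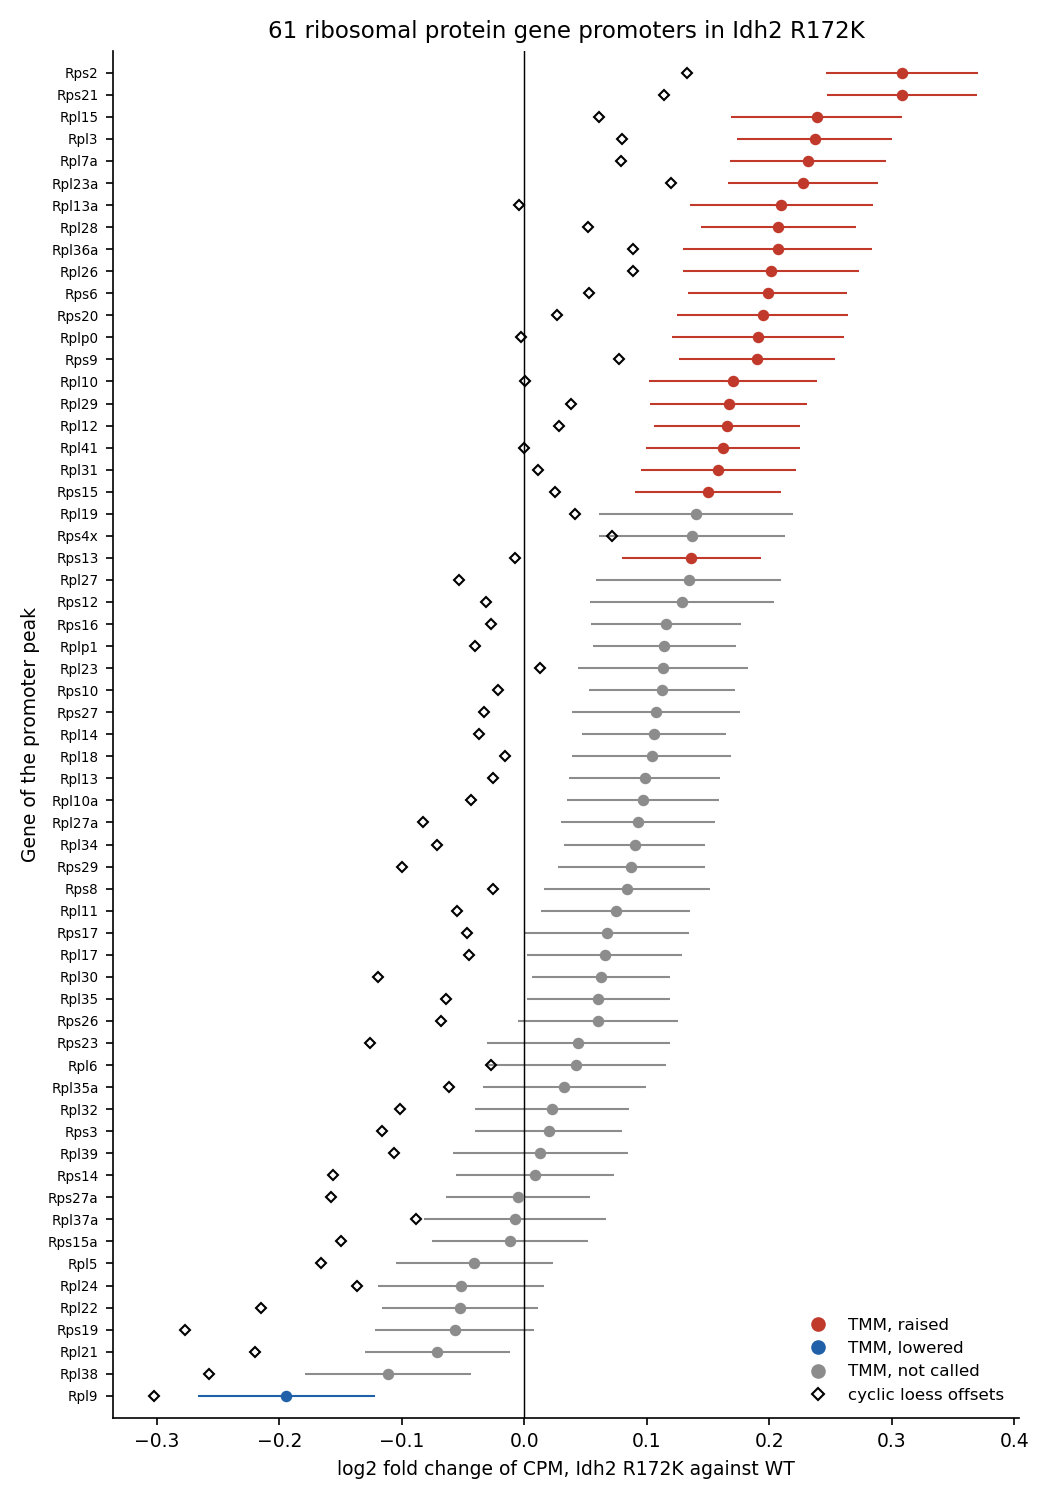
Log2 fold changes of 61 of the 64 gene promoter peaks in Idh2 R172K against WT, by gene, with TMM scaling (circles, bars of 1 standard error, coloured by call) and with cyclic loess offsets (diamonds). Under TMM 51 of these 61 lie above 0, and under loess each lies lower by 0.066 to 0.22 with nearly the same order.

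The direction of the whole group depended on how the libraries were scaled. Under 3 of the scalings, nearly all called gene promoters were raised. TMM gave 23 raised and 1 lowered, beside 39.8% and 15% of promoter-class peaks. Relative log expression (RLE) gave 23 and 1 at a median of 0.12, beside 6543 and 2277 of 15572 promoter-class peaks at a median of 0.15. Upper quartile factors gave 29 and 0 at a median of 0.15. With the deposited counts divided only by their total in peaks, 8 were raised and 5 lowered at a median of 0.030, beside 27% raised and 17.9% lowered of promoter-class peaks. With TMM factors computed from promoter-class peaks alone, 2 were raised and 9 lowered at a median of -0.017, beside 18.5% and 20.8% of the class. With cyclic loess, which takes out differences that depend on peak level, 2 were raised and 13 lowered at a median of -0.029, beside 23.6% and 18.8% of the class. Scaling the libraries to the ribosomal protein promoters themselves makes their sum equal in all libraries, so a gene promoter median near 0 was fixed in advance. This scaling left 3 raised and 6 lowered, and put the median over all peaks at -0.10. TMM from promoter-class peaks put it at -0.12 and library size at -0.069, so fold changes under these 3 scalings are relative to that shift. The 6 scalings with 1 factor per library move the gene promoters and their class alike, so the lower median of the gene promoters (0.107 against 0.139 with TMM) is 1 observation in all 6. With cyclic loess the medians were -0.029 and 0.028.

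**Figure D3:**
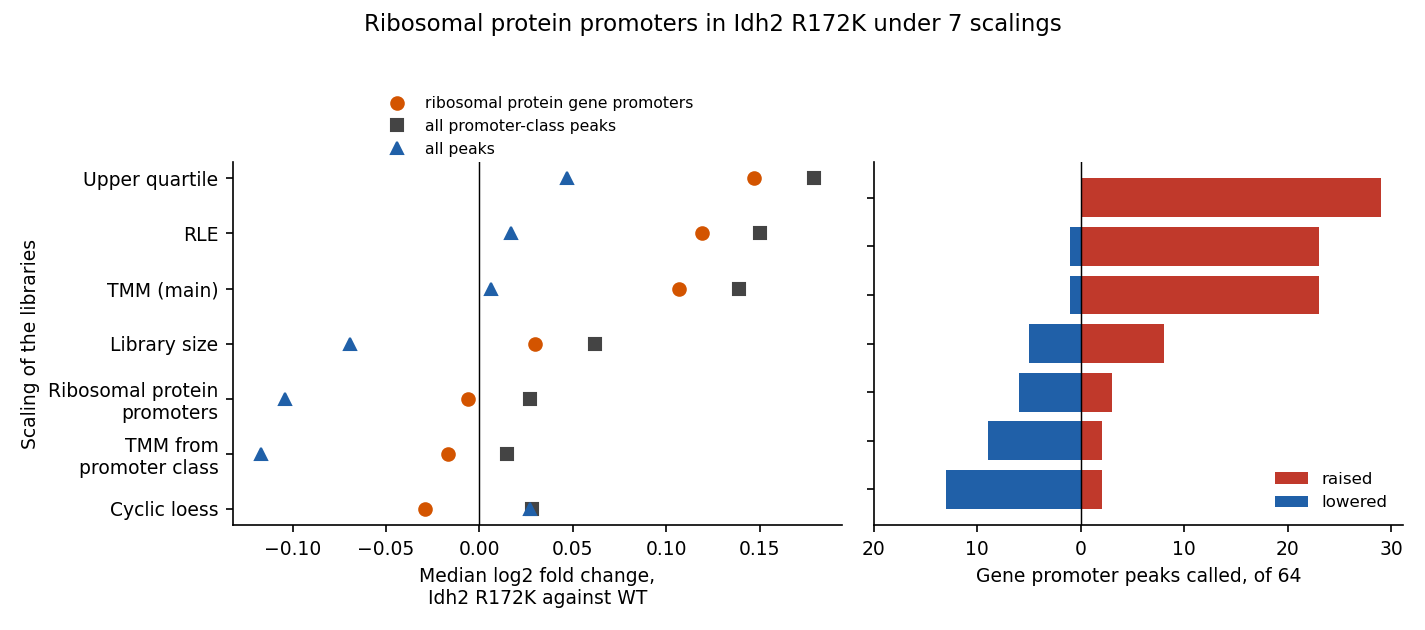
Left, the median log2 fold change in Idh2 R172K against WT under 7 ways of scaling the libraries, for the 64 gene promoters (circles), all promoter-class peaks (squares) and all peaks (triangles). Right, the number of the 64 gene promoters raised (red) and lowered (blue), which runs from 29 and 0 with upper quartile factors to 2 and 13 with cyclic loess.

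Rps2 and Rps21 were the only gene promoters raised under all 7 scalings, with log2 fold changes of 0.13 to 0.35 for Rps2 and 0.11 to 0.35 for Rps21. None was lowered under all 7. Rpl9 was lowered under 6 of them and missed the threshold with upper quartile factors (-0.15, edgeR adjusted p = 0.063). Rpl21, Rpl22, Rpl38 and Rps19 were lowered under 4 scalings and not called under the other 3. Across scalings 29 genes were raised at least once, 14 were lowered at least once, 21 were never called and 0 were raised under some scalings and lowered under others. The order of the genes was largely kept: across the 64 peaks the fold changes with TMM and with loess had a Pearson r of 0.942, a description over peaks that share the same libraries.

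The summed level per library was compared in the same way. The 64 gene promoter peaks took 0.287% of the counts in peaks in WT and 0.294% in Idh2 R172K. Scaled to the deposited total they summed to 2836, 2976, 2801 and 2844 CPM in the WT libraries and 2818, 2936, 3045 and 2949 CPM in the Idh2 R172K libraries, which overlapped (2864 ± 76.8 and 2937 ± 93.0, SD, n = 4). With TMM-scaled library sizes they summed to 2796, 2951, 2671 and 2839 CPM in WT and 2924, 3004, 3131 and 3123 CPM in Idh2 R172K (2814 ± 116 and 3045 ± 99.7), and still overlapped. The TMM factors were 1.002 to 1.049 in WT and 0.945 to 0.978 in Idh2 R172K.

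**Figure D4:**
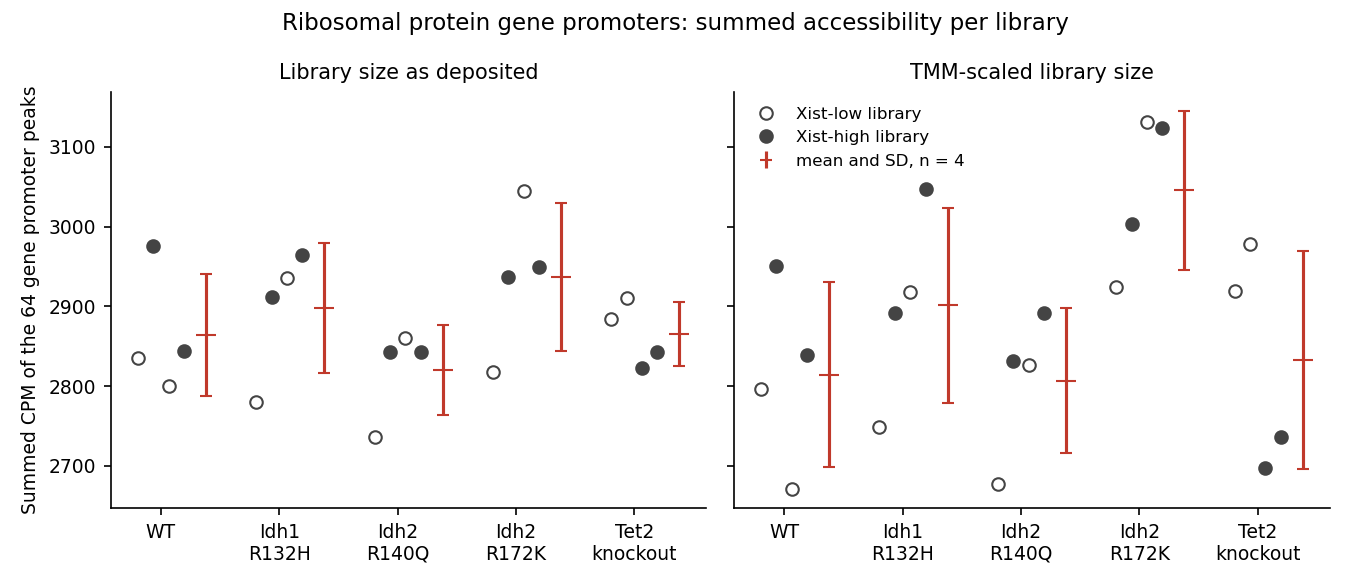
Summed CPM of the 64 gene promoter peaks in each library (circles, filled for Xist-high libraries), with the mean and SD of 4 libraries in red, for library sizes as deposited (left) and TMM-scaled (right). Idh2 R172K stands at 2937 CPM on the left and 3045 CPM on the right, against 2864 and 2814 CPM in WT. The vertical axis does not start at 0.

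Promoters of other housekeeping lists in Idh2 R172K are described by counts and medians only, to be read beside the 39.8% raised and 15% lowered of all promoter-class peaks. That class holds many weak peaks. Of other promoter-class peaks in the level range of the ribosomal protein gene promoters, 56.5% were raised and 3.31% lowered. Mitochondrial ribosomal proteins had 20 of 54 raised and 0 lowered (median log2 fold change 0.14), proteasome subunits 10 of 24 and 0 (0.15), ribosome biogenesis factors 7 of 19 and 0 (0.11), translation factors 6 of 27 with 1 lowered (0.081), and common reference genes 7 of 12 and 0 (0.17). The 8 cytosolic ribosomal protein genes that the symbol pattern misses and that have a gene promoter peak, from a list with Rpsa and Fau, had 1 raised and 0 lowered (0.088). The median level of the mitochondrial list was 27.8 CPM per kb in WT, and those of the other lists lay between 39.6 and 64.3. No gene promoter of these lists was called in Idh1 R132H, Idh2 R140Q or Tet2 knockout. Within the ribosomal protein genes the raised promoters were richer in G and C, with a median GC content of 59.3% over 17 raised and 54% over 29 not called genes with a sequence, and the part of GC content in the calls was not tested. The median log2 fold change was 0.13 with a C and T run at the start (9 of 21 raised) and 0.098 without (8 of 26), and 0.10 with an Ets core (7 of 16) and 0.11 without (10 of 31). It was 0.13 with an Sp1 box (12 of 30) and 0.075 without (5 of 17), and 0.11 both with (2 of 6 raised) and without (21 of 58) a second gene's start in the peak.

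The Xist-low and Xist-high libraries gave the same direction in Idh2 R172K with different counts. With the Xist-low libraries only, 2 against 2, 21 gene promoters were raised and 0 lowered at a median of 0.14, beside 39% and 11.8% of all promoter-class peaks in the same libraries. With the Xist-high libraries only, 9 were raised and 2 lowered at a median of 0.082, beside 24.4% and 11.2%. For Tet2 knockout the median was 0.094 in the Xist-low and -0.084 in the Xist-high libraries, beside 0.011 over all. The 2 Xist-low Tet2 knockout libraries summed to 2919 and 2978 CPM with TMM scaling and the 2 Xist-high ones to 2697 and 2737 CPM. Their TMM factors were 0.988 and 0.978, and 1.047 and 1.039. With library size as deposited the sums were closer, at 2884.5 and 2911.2, and 2822.8 and 2843.3 CPM. In Tet2 knockout the Xist-low libraries were replicates 1 and 2, while in every other genotype they were replicates 1 and 3.

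In the other genotypes no ribosomal protein gene promoter was called. In Tet2 knockout, 0 of 72 promoter-class members were called, beside 1.89% of all promoter-class peaks called in either direction. The log2 fold changes of the gene promoters spanned -0.13 to 0.13 and the lowest edgeR adjusted p was 0.32. At an unadjusted p under 0.05, 1 promoter-class member was raised and 2 lowered, and DESeq2 called 0. In Idh1 R132H, 0 of 313 members were called, beside 0.0274% of all peaks. The median over the gene promoters was 0.041, with a range of -0.16 to 0.15, and at an unadjusted p under 0.05 of edgeR 7 members were raised and 7 lowered. In Idh2 R140Q, 0 of 313 were called, beside 0.0153% of all peaks, with a median of -0.007 over the gene promoters, a range of -0.14 to 0.13, and 10 raised and 8 lowered members at an unadjusted p under 0.05 of edgeR. DESeq2 also called 0 members in either genotype.

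Idh2 R172K was also compared directly with the other mutants. These comparisons share the Idh2 R172K libraries with each other and with the comparison to WT. Against Idh2 R140Q, 22 gene promoters were raised and 0 lowered (32.1% and 14.1% of promoter-class peaks). Against Idh1 R132H, 13 were raised and 2 lowered (31% and 14.8%). Against Tet2 knockout, 18 were raised and 0 lowered (32.5% and 14.2%). The median log2 fold changes over the gene promoters were 0.12, 0.059 and 0.087 in the same order, beside 0.11, 0.094 and 0.11 over all promoter-class peaks. The scaling mattered here too. With library size as deposited the counts were 8 raised and 0 lowered, 7 and 6, and 7 and 0, at medians of 0.056, 0.008 and 0.016. Of the 15572 promoter-class peaks, 3514 were raised and 2572 lowered, 3770 and 2769, and 3317 and 2699, at medians of 0.052, 0.043 and 0.040. With TMM from promoter-class peaks the gene promoter counts were 5 and 2, 4 and 7, and 3 and 3, at medians of 0.015, -0.029 and -0.018. With cyclic loess they were 4 and 6, 3 and 11, and 3 and 8, at 0.007, -0.027 and -0.034. Against Idh2 R140Q the median was above 0 under these 3. Against the other 2 genotypes it turned with promoter-class TMM and cyclic loess, as it did against WT. These medians were small beside the SD of 0.10 over the gene promoters in the comparison with WT. A difference between the mutants in this respect was not tested. Scaling to the ribosomal protein promoters put the median against Idh2 R140Q at -0.004, but a value near 0 is fixed in advance there.

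For 11 of the 75 genes no promoter-class peak was a member, and open regions at these genes, within 500 bp of them, were counted under a neighbour or another class. The rule gave Rpl4, Rpl7, Rplp2, Rps18, Rps25 and Rps28 0 members. The promoter-class peak at Rplp2 was named for Pidd1 and held 54.1 ± 3.14 CPM in WT and 59.6 ± 1.61 CPM in Idh2 R172K (log2 fold change 0.14, edgeR adjusted p = 0.051). The peak at Rps25 was named for Trappc4 and held 61.9 ± 3.35 and 64.8 ± 2.57 CPM, and that at Rpl37 was named for Card6 and held 77.3 ± 4.35 and 83.6 ± 6.65 CPM. The peak at Rpl7 was named for Rdh10 and was raised, from 74.7 ± 3.55 to 84.5 ± 1.27 CPM (0.18, edgeR adjusted p = 0.010). At Rpl8, Rps7, Rps24 and Rpl36 the open region just inside the gene was a member in the intron or transcription end class, and none of these 4 wide peaks passed (log2 fold changes of 0.16, -0.050, 0.11 and -0.060). At Rpl36 a promoter-class peak named for Micos13 also overlaps the outermost RefSeq start of the gene, and it was raised from 45.8 ± 2.92 to 51.4 ± 2.26 CPM (0.16, edgeR adjusted p = 0.023). A smaller intergenic member between them was lowered (-1.35), and a small exonic member of Rpl8 was raised (0.39).

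Most members lay away from the promoters. Of the 314 peaks, 209 were intergenic, 16 intronic, 13 at a transcription end and 4 exonic. The centres of 52 lay inside the gene, those of 231 lay more than 1 kb and those of 84 more than 100 kb from it. Outside the promoter class the median distance was 26270.5 bp and the farthest lay 793581 bp from Rps29. Their median level in WT was 3.01 CPM, against 2.24 CPM for all peaks outside the promoter class. The 5 genes with the most members held 127 of them (40.4%): Rplp1 with 39, Rpl38 with 37, Rps24 with 19, and Rpl14 and Rps29 with 16 each. By contrast, 24 genes had 1 member.

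Over all 313 tested members, 80 were raised in Idh2 R172K (25.6%) and 63 lowered (20.1%), beside 25.1% and 27.9% of all peaks. Outside the promoter class 55 of 241 were raised (22.8%) and 58 lowered (24.1%), beside 23% and 29.8% of all such peaks. Their changes were far wider than those of the promoters: the SD of the log2 fold changes was 0.73, 7 peaks were raised and 31 lowered more than 2-fold (2.9% and 12.9%), beside 3.98% and 14.3% of all peaks outside the class. By distance from the gene, 23 of 83 within 10 kb were raised and 9 lowered, beside 23.7% and 28.7% of all peaks outside the promoter class within 10 kb of a gene. From 10 to 100 kb 14 of 75 were raised and 25 lowered (19.7% and 33% of all such peaks), and beyond 100 kb 18 of 83 and 24 (26.5% and 29.6%). A change of the split with distance was not tested. Of the 8 promoter-class members that were no gene promoter peak, 2 were raised and 4 lowered, among them a peak 143500 bp from Rpl34 with a log2 fold change of -2.08.

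**Figure D5:**
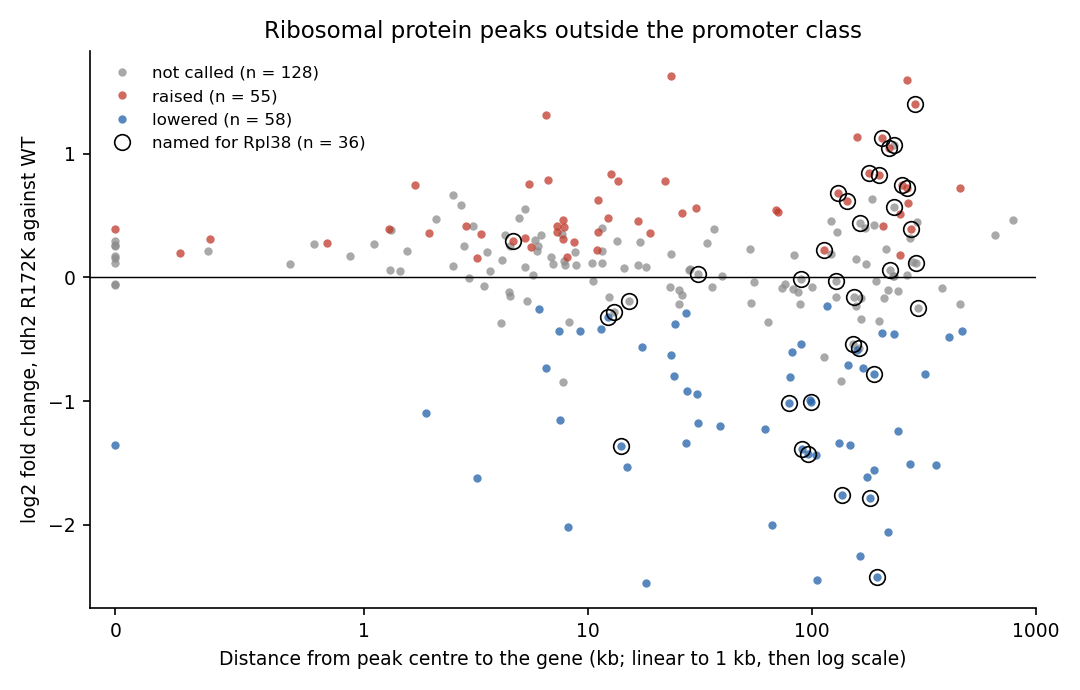
Log2 fold change in Idh2 R172K against WT of the 241 tested members outside the promoter class, by the distance of the peak centre from the gene (kb; linear to 1 kb, then logarithmic). The 55 raised peaks (red) and 58 lowered peaks (blue) spread far more widely than the promoters, and the circled 36 peaks named for Rpl38 hold raised peaks mainly beyond 100 kb.

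The peaks around Rpl38, whose protein favours translation of some Hox mRNAs in mouse embryos, changed in both directions. The Rpl38 promoter itself was not called with TMM scaling (45.7 ± 4.76 CPM in WT, 42.5 ± 3.69 CPM in Idh2 R172K, edgeR adjusted p = 0.16). It was lowered under 4 other scalings, at -0.26 with cyclic loess (edgeR adjusted p = 4.5e-04). Of its 37 peaks 12 were raised (32.4%) and 10 lowered (27%), near the 25.1% and 27.9% of all peaks. The peak at chr11:114446493-114447293, in the intron class and 220925 bp from Rpl38, held 19.5, 18.99, 18.2 and 21.0 CPM in WT and 40.1, 37.4, 37.6 and 45.3 CPM in Idh2 R172K (log2 fold change 1.04, edgeR adjusted p = 2.2e-16). The groups were well apart, and the other 12 libraries ranged from 18.8 to 22.9 CPM. Raised peaks of the same neighbourhood lay at chr11:114462755-114463379 (1.13), chr11:114379421-114380135 (1.40), chr11:114467876-114468855 (0.82) and chr11:114400594-114401497 (0.72). Nearer the gene, the intergenic peaks at chr11:114653561-114654078 and chr11:114570960-114571673, 13999 and 96502 bp away, were lowered (-1.37 and -1.42).

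With TMM scaling, single peaks near other ribosomal protein genes were lowered strongly while the promoter was not. The intergenic peak at chr5:146829429-146829985, 3183 bp from Rpl21, held 8.35, 9.04, 9.33 and 11.6 CPM in WT and 2.50, 3.31, 3.18 and 3.66 CPM in Idh2 R172K (log2 fold change -1.62, edgeR adjusted p = 4.8e-15). A second peak at chr5:146824485-146825054 fell from 4.35 ± 0.350 to 1.08 ± 0.229 CPM (-2.02). The Rpl21 promoter held 45.4 ± 2.72 CPM in WT and 43.3 ± 1.20 CPM in Idh2 R172K and was not called with TMM scaling. It was lowered under 4 other scalings, at -0.22 with cyclic loess (edgeR adjusted p = 3.3e-04). The peak at chr9:61882089-61882762, 30858 bp from Rplp1, fell from 18.7 ± 1.35 to 8.41 ± 1.03 CPM (-1.17, edgeR adjusted p = 1.9e-13). One at chr3:130796401-130797084, 66344 bp from Rpl34, fell from 5.52 ± 0.734 to 1.31 ± 0.767 CPM (-2.002). Near Rps29, the peak at chr12:68892191-68892790 rose from 0.945 ± 0.161 to 2.74 ± 0.478 CPM (1.59, edgeR adjusted p = 7.0e-09).

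Counts by neighbourhood are read beside the same 25.1% raised and 27.9% lowered of all peaks. Most peaks of these neighbourhoods lay outside the promoter class, where 23% of all such peaks were raised and 29.8% lowered. Of the 39 peaks named for Rplp1 13 were lowered (33.3%) and 3 raised (7.69%), and of the 13 named for Rpl34 7 were lowered (53.8%) and 1 raised. At Rps24 6 of 19 were lowered (31.6%) and 1 raised (5.26%). At Rpl3 5 of 7 were raised, the promoter among them, and 0 lowered. The 3 most open members outside the promoter class moved little: 66.8 ± 2.68 and 73.0 ± 5.33 CPM 282418 bp from Rps24, 51.3 ± 4.08 and 46.1 ± 1.39 CPM 210605 bp from Rplp1, and 44.6 ± 1.59 and 50.5 ± 2.28 CPM 246969 bp from Rplp1, in WT and Idh2 R172K. The last passed the test (log2 fold change 0.18, edgeR adjusted p = 0.029) and the second did not (-0.16, edgeR adjusted p = 0.053).

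In Tet2 knockout, 4 of 313 members were raised and 4 lowered (1.28% each), beside 0.785% and 2.32% of all peaks, and all 8 lay outside the promoter class. The raised count was 1 without WT replicate 1, 2 without WT replicate 4 and 2 without Tet2 knockout replicate 3. The peak at chr3:130899901-130900716, 169910 bp from Rpl34, held 22.8, 20.8, 21.7 and 24.3 CPM in WT and 16.1, 18.9, 14.1 and 14.8 CPM in Tet2 knockout (log2 fold change -0.50, edgeR adjusted p = 1.4e-04). All knockout libraries lay below WT, and in Idh2 R172K the peak held 14.5, 11.98, 13.1 and 13.7 CPM. The peak at chr7:117896494-117897007, 207624 bp from Rps15a, rose from 2.43, 2.37, 2.69 and 2.46 CPM in WT to 5.14, 4.09, 3.94 and 3.87 CPM (0.78, edgeR adjusted p = 3.7e-04). The raised Rpl38 peak at chr11:114379421-114380135 was also raised in Tet2 knockout, from 2.12 ± 0.230 to 3.13 ± 0.0761 CPM (0.58, edgeR adjusted p = 0.015). Both comparisons use the same WT libraries. Peaks near Rps24 (0.98) and, lowered, near Rps14 (-0.54) and Rps29 (-0.66) also passed.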

How the data were processed

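ATAC-seq libraries of LSK cells from 20 pools were used, 4 per genotype. The counts per peak are whole numbers, deposited by the authors in 1 table for 1 common peak set, and an annotation table gives position and class. The tools named in the submitters' processing notes are featureCounts, MACS2, SAMtools, Picard, BWA and Trim Galore, with build mm10. Versions, settings, any shift of reads and the unit of a count (read or fragment): not given in the sources used here. Columns were matched by genotype and number, and those joining Idh1 with R140Q were taken as Idh2 R140Q, the genotype with that change. Genes came from RefSeq coordinates (GRCm38.p6).

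The test was that of edgeR 4.0.16 under R 4.3.3 on the counts (TMM, expression filter by genotype, robust quasi-likelihood fit over 20 libraries, 1 mean per genotype, 2-sided). The filter left 123908 peaks and removed 1435, 1 member among them, and the step was tested on simulated data. CPM values use TMM-scaled library sizes unless stated. Levels are mean ± SD over 4 libraries; with 4 per group and a common biological coefficient of variation of 7.73%, small changes rest on the fit across all peaks. The labels do not say that replicate numbers mark pairs. Numbers were taken as pairs where all 4 same-numbered libraries correlated over 0.1 in their deviations from the group means: WT with Idh1 R132H (0.116 to 0.269) and with Idh2 R140Q (0.133 to 0.311), but not WT with Idh2 R172K (-0.06 to 0.152) or the others. For both of these, same-numbered libraries were also of the same Xist set. Different-numbered libraries of the same Xist set correlated at 0.038 to 0.144 and at -0.03 to 0.165, in the same order. The part of the Xist set in these correlations was not tested. Alternatives were other scalings (limma 3.58.1 for loess), no filter, DESeq2 1.42.0, fewer samples, a replicate block and left-out libraries.

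The members, gene lists and tests were chosen with earlier results of these data known. Named peaks were the 4 most and 4 least open gene promoters per kb, the first 6 raised and 6 lowered members by p in Idh2 R172K and 3 and 3 in Tet2 knockout (the 2 with the lowest p where none was called), the 3 most open and 3 lowest-p members outside the promoter class, and Rplp0, Rplp1, Rps14, Rps19, Rpl5 and Rpl11. Others were named after their values were seen. A few members are not reported here.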

Additional observations from a re-analysis of the deposited data

Results flagged for a closer look

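In 2 of 87 groups of 4 libraries, taken at named peaks and for the summed gene promoters, 1 library stood apart from the other 3; chance marks about 1 in 20 such groups. At the Rpl37a promoter 1 WT library held 21 CPM, above 18.7 to 19.03 CPM in the other 3. At the peak 246969 bp from Rplp1 the lowest Idh2 R172K library held 47.1 CPM.

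Idh2 R172K also differed from each of the other mutants at many members, in direct comparisons with the edgeR quasi-likelihood test. Of 313 members, 139 differed from Idh2 R140Q (81 raised, 58 lowered), 131 from Idh1 R132H (70 and 61) and 134 from Tet2 knockout (74 and 60). Among all 123908 tested peaks, 26588 were raised and 31656 lowered against Idh2 R140Q. Against Idh1 R132H they were 28882 and 33048, and against Tet2 knockout 24959 and 29913. Calls were thus no more frequent among the members than among all peaks.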

How the results depend on the processing

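The members chosen, the scaling and the choice of libraries moved the counts of calls; what depth limits was the weak distal peaks, some under 1 CPM. Settings of Xist-low or Xist-high libraries only, and of other member sets, were chosen after seeing the data. For gene promoters in Idh2 R172K against WT (23 raised, 1 lowered, median log2 fold change 0.107), library size as deposited gave 8, 5 and 0.030, cyclic loess 2, 13 and -0.029, promoter-class TMM 2, 9 and -0.017, and scaling to ribosomal protein promoters 3, 6 and -0.006. With upper quartile factors and in the Xist-low libraries 0 were lowered, and in the Xist-high libraries 9 were raised and 2 lowered. Leaving out 1 library gave 13 to 22 raised and 0 to 2 lowered. Under cyclic loess the raised values of Rpl13a (-0.004) and Rplp0 (-0.003) turned and were no longer called, and Rps14 (-0.156) turned to lowered. The other 37 turns had no call in either fit: Rpl6 (-0.034), Rpl35a (-0.043), Rpl11 (-0.001) and Rps14 (-0.067) with library size, Rpl6 (-0.027), Rpl35a (-0.061), Rpl11 (-0.055), Rplp1 (-0.040) and a peak near Rps24 (-0.058) with loess, Rpl6 (-0.081), Rpl35a (-0.089), Rpl11 (-0.048), Rplp1 (-0.009) and Rps14 (-0.114) with promoter-class TMM, Rpl6 (-0.072), Rpl35a (-0.079), Rpl11 (-0.035) and Rps14 (-0.105) with ribosomal protein scaling, Rpl37a with RLE (0.004), DESeq2 (0.005) and upper quartile factors (0.034), Rpl5 with the last (0.000), Rps19 (0.018), Rpl37a (0.028) and Rpl5 (0.085) in the Xist-low libraries, Rpl35a (-0.061), Rpl11 (-0.026) and Rps14 (-0.040) in the Xist-high libraries, and, over the fits that leave out 1 library, Rpl37a (-0.076 to 0.045), Rpl6 (-0.021 to 0.073), Rpl35a (-0.021 to 0.066), Rps14 (-0.038 to 0.042) and Rpl5 (-0.091 to 0.017). Over all members against WT (80 raised, 63 lowered), 43 were raised with library size, 33 with promoter-class TMM, 34 with ribosomal protein scaling and 42 in the Xist-high libraries. Members within 1 kb of the gene gave 28 and 3, and all peaks overlapping the genes 31 and 3. Their shares lowered were 3.61% and 3.19%, beside 20.1% of all members. Among promoter-class peaks 15% were lowered, and 3.31% of the others in the level range of the gene promoters. These 2 sets leave out the distant peaks and differ from all members in class and level too. The part of each was not tested. Against Idh2 R140Q the raised members numbered 51, 43, 35 and 34 under the same 4 settings, those within 1 kb gave 30 raised and 1 lowered, and overlapping peaks 31 and 1. Against Idh1 R132H the raised numbered 46, 38, 40 and 29, with 20 and 4 within 1 kb and 22 and 5 overlapping. Against Tet2 knockout they numbered 43, 34 and 34 under the 3 scalings and 46 in the Xist-low libraries, with 26 and 2 within 1 kb and 31 and 2 overlapping. For Tet2 knockout against WT (4 raised, 4 lowered), the Xist-low libraries gave 7 raised and a gene promoter median of 0.094, the Xist-high ones 2 and -0.084, leaving out 1 library 1 to 3 raised, and members within 1 kb or overlapping the genes 0 and 0. The cause was not tested. With the replicate block the 2 comparisons whose numbers were taken as pairs, Idh1 R132H and Idh2 R140Q against WT, still called 0 members (10 raised and 10 lowered, and 12 and 16, at an unadjusted edgeR p under 0.05). In the comparisons not taken as paired, the replicate block gave 7 members lowered in Tet2 knockout and moved no other count of calls by over 1.5 times. No filter, RLE factors, DESeq2, an Xist term and fits of the 2 genotypes compared kept every count within 1.5 times. Of 861 named-peak values under alternatives, 757 kept their direction and side of the threshold, 45 lost the call, 19 gained one and 40 turned in direction. Choosing members by the gene identifier of the deposited annotation was not run.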
